A study of Homo sapiens with 5 samples.

Results

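The 77 genes described here encode the proteins of the cytoplasmic ribosome, 46 of the large and 31 of the small subunit. They were picked by symbol alone: RPL or RPS followed by a number, with A or X where the symbol has one, plus RPLP0, RPLP1, RPLP2 and RPSA. Paralogs ending in L and the RPS6 kinases were left out, and 19936 genes are listed in all. The cells were LX-2, an immortalized human line of hepatic stellate cells, which lay down collagen when the liver scars. Total RNA was harvested after 48 h from cells given control siRNA (2 libraries) or siRNA against LIX1L (3 libraries). No other treatment or allele is named, and the siRNA sequences were not analysed here. Separate cultures are not stated for the libraries, so each p-value reflects how far these libraries spread, and that spread may be technical only.

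A ribosome holds 1 copy of nearly every ribosomal protein, while the stalk that recruits translation factors holds several copies of RPLP1 and RPLP2 bound to RPLP0. Ribosomal protein mRNAs are short and abundant, and most begin with a C followed by a run of pyrimidines, the terminal oligopyrimidine (TOP) tract. Through this tract, mTORC1 signalling and the binding protein LARP1 set how far these mRNAs are translated and how stable they are. The same mRNAs have been copied back into the genome many times as processed pseudogenes.

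Starts of 10 genes are shown because they carry the TOP tract, or a shorter run, in members and L paralogs whose values follow. Each sequence is the gene strand, 10 bases before and 20 bases from the transcript start annotated by RefSeq on GRCh38.p14. Capitals mark the unbroken pyrimidine run that begins at that start. Where several starts are listed, as for RPL10, a start with the tract was preferred.
RPLP1: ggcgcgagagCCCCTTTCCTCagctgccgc
RPL10: ggaggagcgcCTCTTTCCCTTCggtgtggt
RPL3: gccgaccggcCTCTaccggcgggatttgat
RPS3: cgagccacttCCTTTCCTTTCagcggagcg
RPL35: cgcctacttcCTCTTTCCCTCggagcgggc
RPS23: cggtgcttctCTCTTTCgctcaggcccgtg
RPL22: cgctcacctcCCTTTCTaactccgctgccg
RPSA: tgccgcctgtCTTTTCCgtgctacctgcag
RPL36AL: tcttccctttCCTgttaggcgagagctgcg
RPL22L1: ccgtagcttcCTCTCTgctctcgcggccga
The windows lie at chr15:69452808-69452837 (RPLP1, plus strand), chrX:154398367-154398396 (RPL10, plus, 1 of 3 listed starts), chr22:39319604-39319633 (RPL3, minus) and chr11:75399508-75399537 (RPS3, plus). The others are chr9:124861938-124861967 (RPL35, minus), chr5:82278335-82278364 (RPS23, minus), chr1:6199576-6199605 (RPL22, minus), chr3:39406710-39406739 (RPSA, plus), chr14:49620607-49620636 (RPL36AL, minus) and chr3:170870176-170870205 (RPL22L1, minus). The runs of RPL10, RPLP1, RPS3 and RPL35 span 11 or 12 bases, those of RPS23, RPL22 and RPSA 7, and that of RPL3 only 4.

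The RefSeq table matched 62 of the 77 members by symbol. The motif searched was a C exactly at the annotated start followed by at least 4 bases that are each C or T, on the gene strand. A gene counted if any of its listed starts held the motif (77 starts for the 62 members, 35116 for all genes). It was found in 46 of these 62 genes (74.2%), against 5.14% of all 27305 genes in the table. With the C allowed up to 5 bases to either side, 53 of the 62 (85.5%) and 25.2% of all genes held it, and on the opposite strand 11.3% and 22.3%. Among the mitochondrial ribosomal proteins, which serve the separate ribosome of the mitochondrion, 6 of 69 genes (8.70%) held it at the start. The members whose LIX1L siRNA libraries all lay below both controls held it in 15 of 21 matched genes (71.4%), and those whose groups overlapped in 30 of 40 (75.0%). The tract was thus about as frequent in both sets, which shows nothing about its use in these cells.

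LIX1L, the gene targeted, had 26.4 and 35.5 reads per 1000000 (RPM) in the controls and 6.60, 7.08 and 3.65 RPM in the LIX1L siRNA libraries. The groups did not overlap, and limma gave a difference of -0.87 ± 0.11 (SE) on the log2(FPKM + 1) scale (adjusted p = 0.038), a change that this scale understates for a low gene. The libraries held 14856104 to 18294056 reads on listed genes. LX-2 collagen and matrix genes such as COL1A1 and SPARC were abundant, while of the other stellate markers LRAT was at 0 reads and DES at most 0.711 RPM. The 11 stellate markers summed to 3950 and 10892 RPM in the controls and to 6708 to 7101 RPM after LIX1L siRNA. ACTA2 had 39.0 and 35.4 RPM in the controls against 8.89, 8.41 and 14.8 RPM, and its groups did not overlap. COL1A2 was also lower without overlap, at 101 and 134 RPM against 61.5, 61.2 and 37.1 RPM. The groups overlapped for the other stellate markers with reads. The summed markers reached at most 0.134 RPM for hepatocytes and 6.75 RPM for endothelial cells. Macrophage markers summed to 10.4 and 36.5 RPM in the controls, mostly CD14 and highest in control 2, and to 5.05 to 8.54 RPM after LIX1L siRNA. Cholangiocyte markers, nearly all SOX9, summed to 46.4 and 31.4 RPM in the controls and 53.9 to 105 RPM after LIX1L siRNA. The part of these markers in the results was not tested. The 2 control libraries differed from each other by a median of 0.44 (absolute log2 RPM over genes), and the LIX1L siRNA libraries by 0.12 (1 and 2), 0.25 (1 and 3) and 0.26 (2 and 3).

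The ribosomal protein genes together did not separate the groups: control 2 was high, and control 1 lay among the LIX1L siRNA libraries. They took 2.80% of reads in control 1 and 3.84% in control 2. After LIX1L siRNA the share was 2.99%, 2.61% and 2.49% in libraries 1 to 3. The control mean was 3.32% ± 0.731 (SD, n = 2) and that after LIX1L siRNA 2.69% ± 0.262 (SD, n = 3), so the gap was smaller than the SD of the controls. The 95% Wilson intervals were at most 0.0176 percentage points wide, and they cover counting error only. In bulk RNA, a lower level per cell cannot be told apart from fewer cells that express the gene.

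Of the 77 genes, 70 were highest of all 5 libraries in control 2, against 28.3% of all genes with enough reads. Control 2 exceeded control 1 in 73 (background 45.0%), with a median ratio of 1.39 and a range from 0.711 for RPS23 to 1.92. Control 1 fell within the range of the LIX1L siRNA libraries for 36 genes, above all 3 for 27 and below all 3 for 14. Against control 1 alone, 38 of 77 members had a lower mean after LIX1L siRNA (background 51.6%), and against control 2 alone 73 had (background 47.1%).

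**Figure D1:**
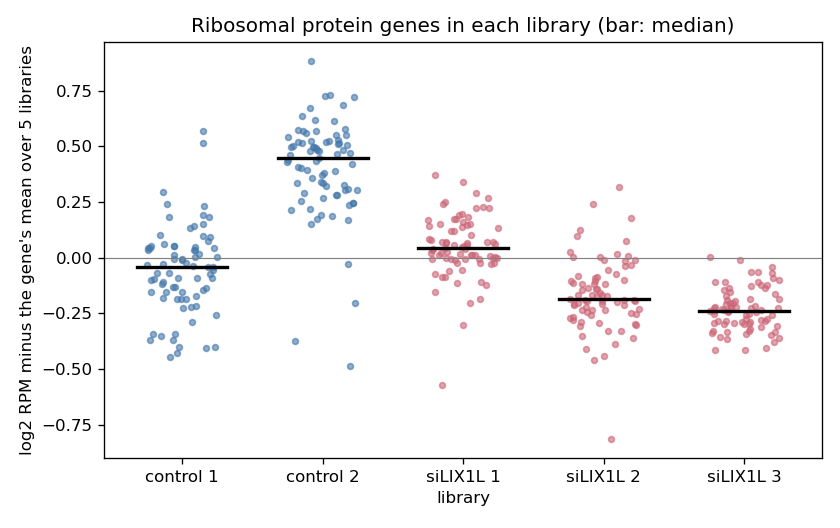
Each point is 1 of the 77 ribosomal protein genes in 1 library, as its log2 RPM (y axis) minus its own mean over the 5 libraries (x axis), with a bar at the library's median; blue is control and red LIX1L siRNA. The median is 0.45 in control 2, -0.04 in control 1, and 0.05, -0.19 and -0.24 after LIX1L siRNA.

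In the limma fit over 6464 genes, 74 members could be tested and none passed an adjusted p of 0.05, against 1.87% of all genes. RPL17, RPS10 and RPS29 stayed below the minimum level of 1 FPKM in at least 2 libraries. At an unadjusted p under 0.05 there were 10 members, all lower (13.5% of the members tested, against 14.0% of all genes lower and 27.6% in either direction). The difference was negative in 63 of 74 (50.6% of all genes), with a median of -0.30 against -0.01 over all genes. edgeR's quasi-likelihood test also called none of 77 (0.891% of all genes), with 15 at an unadjusted p under 0.05 (25.8% of all genes), and DESeq2 called 3, RPL10, RPLP1 and RPL9 (12.5% of all genes). These summaries rested on control 2. Without it the median was -0.06, 40 of 74 were negative and 1 gene, RPL10, was called (5.21% of all genes). Without control 1 the median was -0.51 and 21 members were called lower (25.5% of all genes called in either direction, 13.0% lower).

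Large and small subunit genes gave like values, with 39 of 45 and 24 of 29 differences negative and medians of -0.26 and -0.32. In RPM, every LIX1L siRNA library was below both controls for 27 members (35.1% of 77, background 21.8% lower), 15 of the large and 12 of the small subunit. The opposite held for 1 member, RPL36A (background 22.2% higher).

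**Figure D2:**
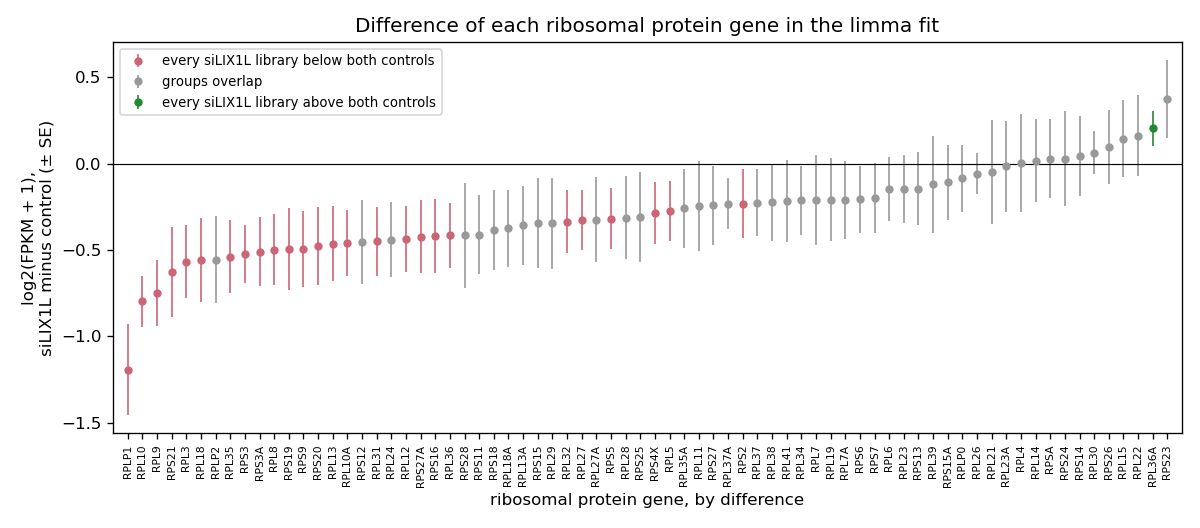
The limma difference (LIX1L siRNA minus control, log2(FPKM + 1), y axis) with its SE for 72 of the ribosomal protein genes tested (x axis), ordered by size; red marks genes whose LIX1L siRNA libraries are all below both controls in RPM, green the reverse, grey an overlap. Most lie below 0, from -1.19 for RPLP1 to 0.38 for RPS23, and the red genes are spread over the lower part.

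RPL10, which helps form the peptidyl transferase region and joins the large subunit late in assembly, was the member with the smallest p. Its level was 291 and 294 RPM in the controls and 165, 148 and 167 RPM after LIX1L siRNA. Both controls stood well above the other libraries and close to each other. Mean levels were 292 ± 2.11 RPM (SD, n = 2) and 160 ± 10.5 RPM (SD, n = 3), a 1.82-fold lower level. limma gave -0.80 ± 0.15 (SE; adjusted p = 0.0503, just above the threshold). With a minimum of 5 FPKM, which tests fewer genes, RPL10 was the 1 member called lower (adjusted p = 0.044). RPL10 lies at chrX:154389955-154409168 on GRCh38.

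The 3 genes of the P stalk did not show 1 pattern. RPLP1 had 354 and 441 RPM in the controls and 161, 136 and 228 RPM after LIX1L siRNA, with library 3 above libraries 1 and 2. The groups did not overlap, the mean was 2.27-fold lower, and limma gave -1.19 ± 0.26 (SE; adjusted p = 0.064), so the gene did not pass. RPLP0, the base of the stalk, had 963 and 1137 RPM against 1057, 973 and 936 RPM, overlapping groups (limma -0.08 ± 0.19, adjusted p = 0.81). RPLP2, the partner of RPLP1, had 146 and 236 RPM against 147, 117 and 116 RPM, so control 1 lay within the other group (limma -0.55 ± 0.25, adjusted p = 0.21). Read counts of RPLP1 over RPLP0, which do not depend on depth, were 0.368 and 0.388 in the controls and 0.152, 0.140 and 0.244 after LIX1L siRNA. For RPLP1 over RPLP2 the ratios were 2.42 and 1.87 against 1.10, 1.16 and 1.97, which overlap. RPLP1 was chosen here with these values known, so the ratios carry no test.

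The members with the next smallest p-values among the lower ones, RPL9, RPS3, RPL3, RPS3A and RPL35, all had groups that did not overlap. RPL9, a large subunit protein, had 530 and 662 RPM in the controls and 379, 318 and 353 RPM after LIX1L siRNA (limma -0.75 ± 0.19, adjusted p = 0.078). RPS3, which lies at the mRNA entry channel, had 537 and 650 RPM against 436, 400 and 379 RPM (adjusted p = 0.12). RPL3, which lies near the peptidyl transferase centre, had 1162 and 1448 RPM against 983, 877 and 772 RPM (adjusted p = 0.15). In these 3 genes control 1 was the lower control, and it was closer to the LIX1L siRNA libraries than control 2 was. RPS3A and RPL35 differed by -0.51 and -0.54 in limma, with adjusted p-values of 0.16 and 0.17.

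RPL5 and RPL11, which travel with the 5S rRNA and can bind MDM2, the regulator of p53, differed little. RPL5 had 685 and 669 RPM against 611, 537 and 529 RPM, groups apart but close (limma -0.27 ± 0.17, adjusted p = 0.34). RPL11 had 360 and 605 RPM against 445, 383 and 357 RPM, overlapping (adjusted p = 0.58). RPS27A, made as a fusion to ubiquitin, had 213 and 290 RPM against 210, 177 and 169 RPM (limma -0.42 ± 0.21, adjusted p = 0.25). RPS4X, the X-linked form of eS4, differed by -0.28 ± 0.18 (adjusted p = 0.35). FAU, which encodes RPS30 and lies outside the symbol rule, differed by -0.28 and did not pass either (adjusted p = 0.47).

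The positive differences were small. RPS23, a protein of the decoding centre, had 81.8 and 58.2 RPM in the controls and 106, 96.4 and 74.2 RPM after LIX1L siRNA (limma 0.38 ± 0.22, adjusted p = 0.32). It was among the 4 members in which control 2 was not above control 1. RPL22 had 217 and 325 RPM against 362, 306 and 245 RPM, and RPL15 598 and 884 RPM against 858, 787 and 774 RPM. Both overlapped, and both differences turned negative without control 1 (-0.10 and -0.13). RPL36A was at 3.97 and 3.44 RPM against 5.45, 5.56 and 4.27 RPM, from 59 to 84 reads a library (limma 0.20 ± 0.10, adjusted p = 0.25).

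**Figure D3:**
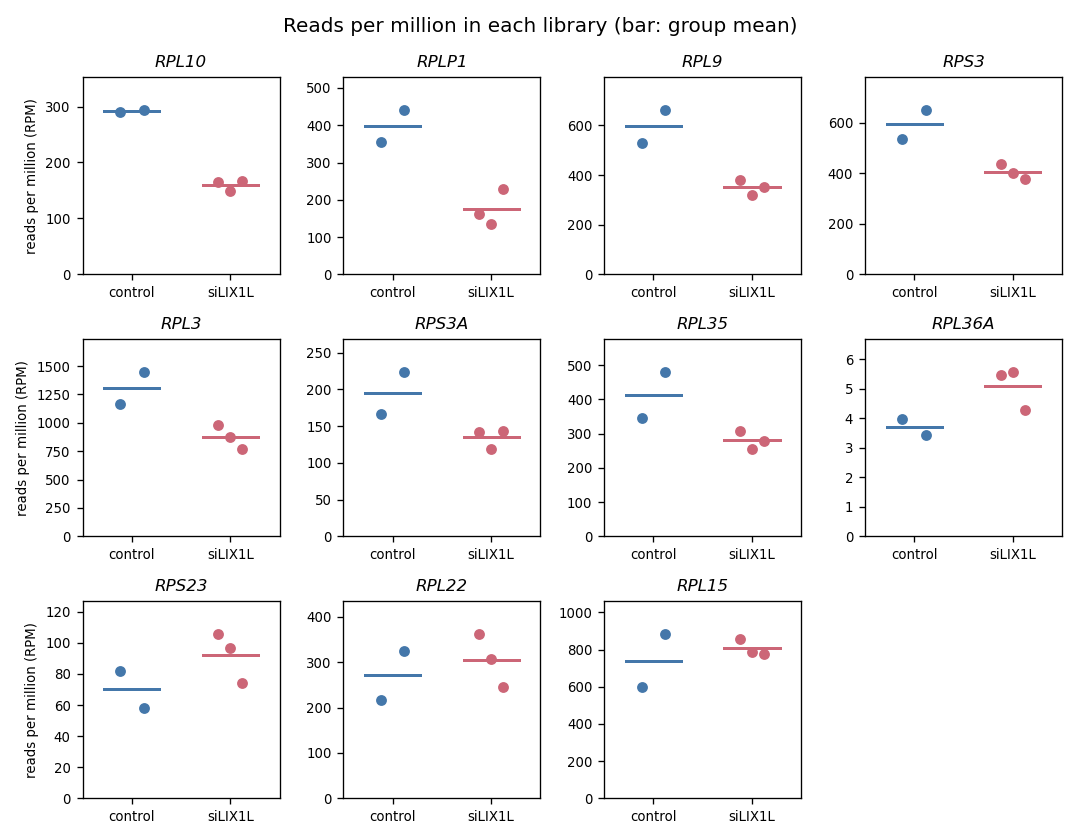
RPM in every library (points; y axis from 0) with the group mean (bar) for 7 ribosomal protein genes with small p among negative differences and the 4 with the smallest p among positive ones; the x axis gives the group, blue control and red LIX1L siRNA. Groups stand apart for RPL10 and RPLP1 and overlap for RPL22 and RPL15.

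Among themselves the ribosomal protein genes split when each was taken as a percent of all ribosomal protein reads, a scale that removes the shift of control 2. On it 25 of the 77 genes were lower in every LIX1L siRNA library than in both controls (background 9.82% lower, all genes scaled the same way) and 16 were higher (background 30.8% higher). The scale centres the members but moves other genes, whose background in RPM was 21.8% lower and 22.2% higher. A comparison with the scaled background therefore cannot show an excess of lower members. Of the 27 genes lower in RPM, 18 were also lower on this scale. RPLP1 made up 1.27% and 1.15% of ribosomal protein reads in the controls and 0.538%, 0.521% and 0.918% after LIX1L siRNA. RPSA, the laminin receptor homologue at the back of the small subunit, made up 3.52% and 3.57% against 4.44%, 4.54% and 4.27%. RPL15 made up 2.14% and 2.30% against 2.87%, 3.02% and 3.11%. Such shares are tied to one another, since some must be higher when others are lower. In the limma fit scaled to ribosomal protein reads no member passed (73 tested, median -0.03), and 4 of 6563 genes passed in all.

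In level per kilobase of the longest annotated coding transcript, RPS2 was highest with a mean of 1189 RPM per kb over the 5 libraries. It was followed by RPL7A (1014), RPSA (1013), RPL8 (837), RPLP0 (754) and RPL3 (727). RPL7A and RPSA could not be ordered, as their ranges over libraries, 874 to 1273 and 842 to 1170 RPM per kb, nearly coincided. Only 3 of these 6 were also among the first 6 per kilobase of coding sequence, because annotated transcripts of some members are long (7686 bases for RPL37, 7062 for RPS29). At the low end per kilobase of mRNA were RPS29 (3.14), RPL17 (2.13) and RPS10 (1.09 RPM per kb).

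The members with few reads shared a position. The 6 with the lowest mean RPM, at 1.54 to 19.7 RPM, included RPS10, RPL17, RPL36A, RPL26 and RPS15A. The other 71 ran from 22.2 to 1303 RPM, with a median of 361. Each of the 6 is overlapped on its own strand by another listed gene that had 0 reads in all 5 libraries. Examples are RPL17-C18orf32, RPL36A-HNRNPH2 and RPS10-NUDT3, whose names mark them as joint transcripts. RPL36 and RPS13 are also overlapped on their strand, by HSD11B1L and PIK3C2A, which had reads, and stood at 124 and 150 RPM. The sources used here do not state how reads in shared exons were counted, so the low levels of these 6 are uncertain. Shared exons were not extensive in every case, as the smallest share of a member's exon bases covered was 3.26%. The part of the overlap in the low levels was not tested. Leaving the 6 out gave 60 of 70 negative differences and a median of -0.31.

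Pseudogenes were annotated by name for 76 of the 77 members, 1132 in all and 1119 of them processed, with a median of 10 per gene. RPL23A had most (91), then RPSA (74), RPL21 (66) and RPL7 (61), and RPL28 had none. The deposited tables list 1 pseudogene of a member, RPS27AP5, at 0 reads in every library. Members with 0 to 4 pseudogenes (26 genes) had a median difference of -0.38 in log2(RPM + 1). The median was -0.22 with 5 to 14 (22 genes), -0.24 with 15 to 29 (18 genes) and -0.21 with 30 or more (11 genes). Only the class with fewest stood apart. Spearman's rho over 77 members was 0.29 between pseudogene number and this difference and -0.39 between GC content and it. The gap between the controls varied too. Control 2 exceeded control 1 by a median log2 RPM of 0.62 with 0 to 4 pseudogenes and 0.47 with 30 or more. Between pseudogene number and that gap rho was -0.18. These are descriptions over genes that share the same 5 libraries and the choice of reads that align uniquely or not, which is not stated. RPL23A, with the most pseudogenes, had 36.8 and 65.2 RPM against 58.0, 48.3 and 40.9 RPM, and RPL21 371 and 699 RPM against 568, 496 and 425 RPM, both overlapping.

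**Figure D4:**
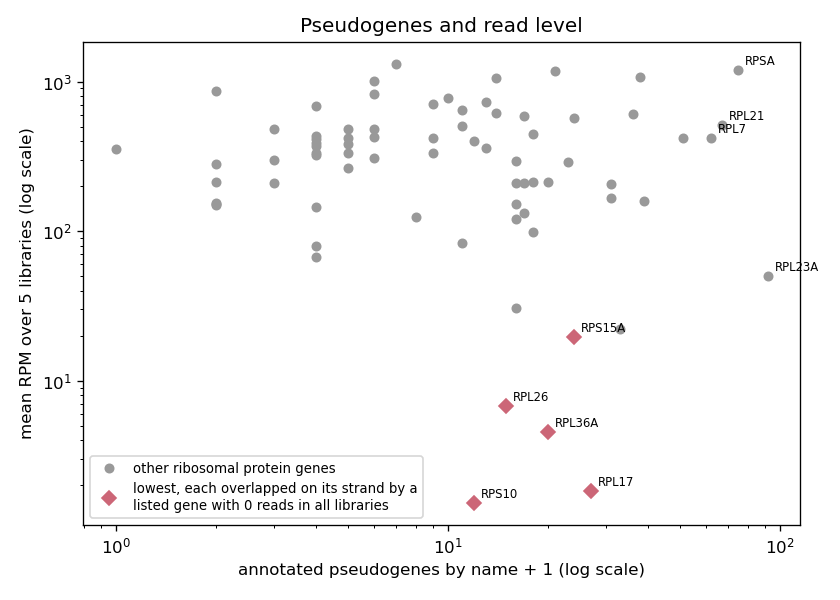
Mean RPM over the 5 libraries (y axis, log scale) against the number of annotated pseudogenes plus 1 (x axis, log scale) for 75 of the ribosomal protein genes; diamonds are 5 genes overlapped on their strand by a listed gene with 0 reads. The 5 diamonds are the lowest points, and the genes with over 60 pseudogenes stand above all 5 of them.

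Short mRNAs outside the ribosome also had mostly negative differences. Length here is that of the longest annotated coding transcript, which is long for some members with a short coding sequence. Of the 77 members, 75 have coding sequences under 1 kb. For 245 other tested genes with mRNAs under 1 kb the median limma difference was -0.34 and 83.3% were negative, and it was -0.23 for 1 to 2 kb. The median rose with length, through -0.08, 0.05 and 0.15, to 0.23 for genes of 6 kb and over. The ribosomal protein genes under 1 kb (25 tested) had a median of -0.35, and those of 1 to 2 kb (29 tested) of -0.26. Both were close to other genes of those mRNA lengths. By coding sequence under 1 kb the values lay further apart. There 72 tested members had a median of -0.30 (86.1% negative), and 2283 other genes one of -0.12 (62.3% negative). Those of 2 to 3 kb (12 tested) had a median of -0.24, against -0.08 in other genes. Longer classes held at most 3 tested members each, with medians of 0.15 (3 to 4 kb), -0.32 (4 to 6 kb) and -0.10 (6 kb and over). Within the members, rho between mRNA length and the difference in log2(RPM + 1) was 0.14 (77 genes). With a smooth trend of length and GC content removed, the members' median was -0.04 and 44 of 74 were negative.

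Set against each control alone, the classes differed. Against control 1, the LIX1L siRNA mean of other genes under 1 kb differed by a median of -0.25 in log2 RPM, and that of ribosomal protein genes under 1 kb by -0.12. Control 2 was above control 1 by a median of 0.29 in the other short genes and 0.47 in the ribosomal protein genes of that length. For genes of 6 kb and over, control 2 was lower than control 1 (-0.28). In the ribosomal protein genes the gap between the controls was 0.47, 0.46 and 0.54 for annotated lengths under 1, 1 to 2 and 2 to 3 kb. In other genes it was 0.29, 0.13 and 0.00. The classes rest on the longest annotated transcript, and the transcript lengths present in these cells were not examined.

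**Figure D5:**
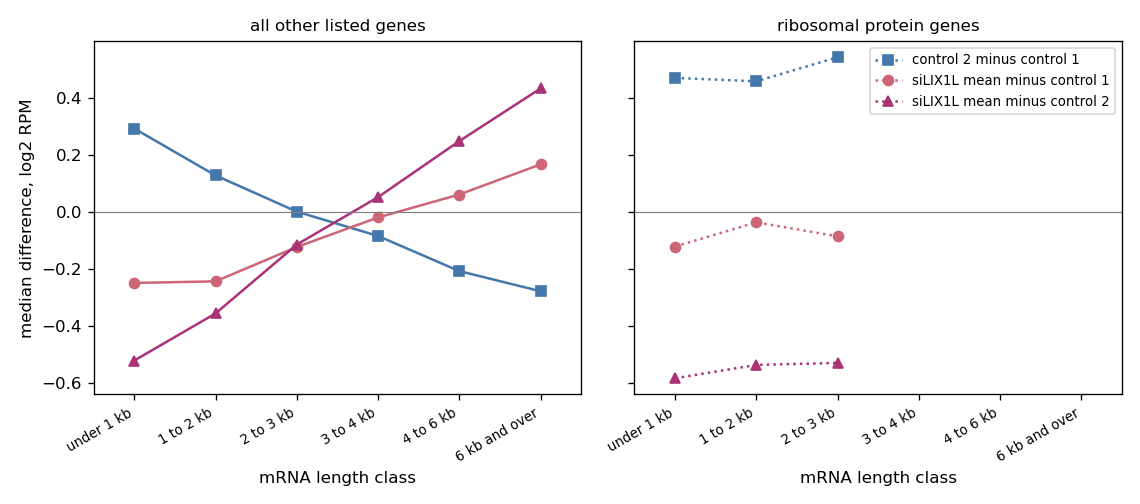
Median difference in log2 RPM (y axis) by class of mRNA length (x axis), for all other listed genes with enough reads (left) and for ribosomal protein genes in classes of at least 5 (right); squares are control 2 minus control 1, circles and triangles the LIX1L siRNA mean minus control 1 and minus control 2. In other genes the lines cross 0 with length, and in ribosomal protein genes the gap between the controls is 0.46 to 0.54 in each class drawn. Length is that of the longest annotated coding transcript.

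The L paralogs, related genes that encode alternative or separate proteins, did not pass in the 5 that could be tested in limma or the 6 in edgeR, and none had an unadjusted limma p under 0.05. Their median was 0.04 in limma and -0.16 in edgeR, and in limma it was negative without either control (-0.16 without control 1, -0.040 without control 2). RPL22L1 had 27.7 and 13.2 RPM in the controls and 11.4, 8.21 and 14.7 RPM after LIX1L siRNA (limma -0.57 ± 0.28, adjusted p = 0.24), while RPL22 differed by 0.16. RPL36AL had 64.7 and 169 RPM against 126, 109 and 107 RPM, and control 1 was its lowest library. RPL7L1 (0.24), RPL26L1 (0.04) and RPS27L (-0.10) differed by less than 1.5 SE. RPL39L was below the limma minimum, with 12.4 and 15.4 RPM in the controls and 10.4, 8.14 and 9.10 RPM after LIX1L siRNA. Its groups did not overlap, and in edgeR its unadjusted p was 0.046 and its adjusted p 0.19. RPL3L, a muscle form, and RPL10L, a testis form, had at most 0.202 RPM.

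Among 17 tested regulators of mTORC1 and of TOP mRNAs, 1 fell and 1 rose past the threshold (1.87% of all genes passed). At an unadjusted p under 0.05 there were 8 of the 17, 2 lower and 6 higher (27.6% of all genes). DDIT4, a stress-induced inhibitor of mTORC1, fell from 39.1 and 38.0 RPM to 13.5, 12.4 and 11.5 RPM (limma -1.48 ± 0.15, adjusted p = 0.038). EIF4EBP2, a translation repressor that mTORC1 phosphorylates, rose from 48.9 and 56.0 RPM to 157, 173 and 132 RPM (limma 1.21 ± 0.16, adjusted p = 0.038). Neither passed when any 1 LIX1L siRNA library was left out, as then no gene of the whole table did. LARP1, which binds the TOP tract, had 327 and 172 RPM against 461, 485 and 451 RPM and did not pass (0.72 ± 0.20, adjusted p = 0.094). Other mRNAs with a TOP tract, among them elongation factors, had 13 of 18 negative differences (50.6% of all genes), a median of -0.20 and no call in limma or edgeR, with 2 at an unadjusted limma p under 0.05 (27.6% of all genes). Here too the median depended on control 2, being -0.030 without it and -0.22 without control 1.

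Of 45 tested ribosome biogenesis genes none passed in limma or edgeR, 8 were at an unadjusted limma p under 0.05 (27.6% of all genes), and 24 differences were positive. Their median of 0.03 had no stable sign, with 0.15 without control 1 and -0.065 without control 2. FBL, the rRNA methyltransferase of box C/D particles, had 224 and 246 RPM against 150, 132 and 145 RPM (-0.68 ± 0.15, adjusted p = 0.066). UTP20, a processome component, had 61.1 and 33.5 RPM against 111, 130 and 103 RPM, and POLR1A, the largest subunit of RNA polymerase I, 92.0 and 69.9 RPM against 139, 151 and 143 RPM. Both differed in the positive direction without passing (adjusted p = 0.065 and 0.072). NPM1, a nucleolar chaperone, had 1986 and 2026 RPM against 896, 859 and 1815 RPM, with LIX1L siRNA library 3 near the controls (adjusted p = 0.18). Of 13 ribosome quality control genes none passed with either tool, and 3 were at an unadjusted limma p under 0.05, a share near the 27.6% of all genes. The mitochondrial ribosomal protein genes had 42 of 61 negative differences (50.6% of all genes) and a median of -0.16, which was 0.078 with the length and GC trend removed. Neither tool called one, and 10 were lower at an unadjusted limma p under 0.05 (14.0% of all genes lower).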

How the data were processed

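Total RNA of LX-2 cells, harvested 48 h after transfection, went into Illumina libraries, per the labels' protocols. The authors deposited FPKM per gene for each library, and raw read counts and a length per gene for LIX1L siRNA library 3 only, per the file headers. Bowtie 0.12.2 and the mouse build mm8 are named in the submitters' processing notes, while the files hold human gene IDs, so the true build and annotation are uncertain. The deposited lengths equal gene spans of GENCODE 29 (GRCh38) for 98.2% of genes found there, so levels between genes were compared per kilobase of mRNA or coding sequence instead. Coordinates and pseudogenes are from GENCODE 29, and start sequences from RefSeq. Reads recovered from FPKM steps were whole for 100% of values (tolerance 0.01 reads) and equal to the deposited counts for all 19936 genes of library 3. RPM is these reads per 1000000 reads on listed genes.

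Groups were compared with limma 3.58.1 (R 4.3.3) on log2(FPKM + 1), with trend and robust variance, two-sided and Benjamini-Hochberg adjusted at 0.05. A gene was tested if 2 or more libraries reached 1 FPKM. edgeR 4.0.16 and DESeq2 1.42.0 were run on the recovered read counts, and the 3 fits were tested on simulated data. The simulated data held no shift between the controls and no trend with length, so they do not bear on those features here. Genes named are the members with the smallest p (8 negative, 4 positive), the 6 highest and 4 lowest per kilobase, selected members and paralogs, and up to 3 with the smallest p per related list. Some genes that this rule names are not reported here. The members, lists and named genes were chosen with earlier results of these data known. RPL23A, RPL21, RPL36 and RPS13 were named after their values were seen.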

Additional observations from a re-analysis of the deposited data

How the results depend on the processing

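The number of genes called over the whole table was 121 and changed with the settings: 0 with no minimum level, 233 with quantile normalization, 0 with LIX1L siRNA libraries 1 and 2 averaged, 0 with the length and GC trend removed, 1673 with DESeq2 and 4 scaled to ribosomal protein reads, a scaling chosen after seeing the data. Leaving out 1 library gave 0 to 1650 calls. For the ribosomal protein genes, calls went from 0 to 1 with a minimum of 5 FPKM and 3 with DESeq2, and 0 to 21 without 1 library. Negative differences, 63 in number, were 40 with quantile normalization, 39 scaled to ribosomal protein reads and 40 to 71 without 1 library. The median of -0.30 was -0.016 with quantile normalization, -0.036 with the trend removed, -0.028 scaled to ribosomal protein reads and -0.51 to -0.062 without 1 library. The cause was not tested.

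LIX1L stayed lower in every setting that tested it. Its adjusted p exceeded 0.05 with no minimum level (difference -0.87), with libraries 1 and 2 averaged (-0.89), with the trend removed (-0.98), scaled to ribosomal protein reads (-0.75) and without any 1 LIX1L siRNA library. Without 1 library its difference ran from -0.99 to -0.75. By classes of coding in place of mRNA length, the medians of other genes were -0.12, -0.0012, 0.083, 0.18 and 0.24 for under 1, 1 to 2, 2 to 3, 3 to 4 and 4 to 6 kb.

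Directions of small differences turned. With quantile normalization RPS2 (0.24), RPL7A (0.26), RPLP0 (0.16), RPL5 (0.024) and RPL11 (0.11) were positive. With the trend removed RPS2 (0.22), RPL7A (0.20), RPLP0 (0.21), RPL11 (0.030) and FAU (0.0020) were. Scaled to ribosomal protein reads RPS2 (0.056), RPL7A (0.078), RPLP0 (0.20), RPL5 (0.0084), RPL11 (0.039) and RPS27L (0.10) were. RPSA was negative with libraries 1 and 2 averaged (-0.0096) and in edgeR (-0.0061), and RPL36AL in edgeR (-0.071) and DESeq2 (-0.050). Leaving out 1 library turned RPL22 (-0.10 to 0.43), RPL15 (-0.13 to 0.42), RPL7A (-0.42 to 0.0075), RPSA (-0.21 to 0.27), RPLP0 (-0.20 to 0.035), RPL11 (-0.61 to 0.12), FAU (-0.57 to 0.0069), RPL7L1 (-0.040 to 0.52), RPL26L1 (-0.17 to 0.26), RPL36AL (-0.56 to 0.79) and RPS27L (-0.51 to 0.30).

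With the replicate number as a block, 94 genes were called, none of them ribosomal protein genes, 61 of 74 were negative and the median was -0.23. RPS27L turned positive (0.026). Library 3 has no partner and adds nothing to that difference. Deviations of same-numbered libraries correlated at -0.12 and -0.086 over 13026 genes, and the labels do not tie the numbers to shared cultures.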

Other observations

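Other short-mRNA complexes gave few calls. SNRPA, a protein of the U1 splicing particle, had 115 and 128 RPM in the controls and 54.4, 48.1 and 54.5 RPM after LIX1L siRNA (limma -1.02 ± 0.14, adjusted p = 0.038). It was the 1 gene of 27 tested snRNP and LSm genes past the threshold (1.87% of all genes). In that list 6 were at an unadjusted limma p under 0.05, 5 lower and 1 higher (27.6% of all genes). None of 33 proteasome subunit genes passed in limma or edgeR. At an unadjusted limma p under 0.05, 7 of them were lower (14.0% of all genes lower, 27.6% in either direction). Nuclear genes of oxidative phosphorylation had 55 of 59 negative differences (50.6% of all genes) and no call in limma or edgeR. Of these genes 10 were lower at an unadjusted limma p under 0.05 (14.0% of all genes lower, 27.6% in either direction). Their median of -0.25 was -0.11 without control 2, -0.37 without control 1 and -0.034 once a trend of length and GC content was removed. The 13 mRNAs encoded in the mitochondrial genome took 2.24% and 3.35% of reads in the controls and 1.08%, 1.29% and 1.14% after LIX1L siRNA. None passed in limma (1.87% of all genes), and 11 were lower at an unadjusted limma p under 0.05 (14.0% of all genes lower). edgeR called 1 of them (0.891% of all genes). The median limma difference of these 13 was -1.19. It was -1.31 without control 1, -0.90 without control 2 and -0.89 once a trend of length and GC content was removed. In RPM, 12 of the 13 were lower without overlap (background 21.8% lower). The cause was not tested.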
